A study of Mus musculus with 28 samples.

Results

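The intercalated cells of the collecting duct were followed through 10 genes of their proton and anion transport in the kidneys of mice gavaged with nicotinamide mononucleotide (NMN) or with water. The genes were taken as a list of names, matched to the Ensembl identifiers of the files, and were 10 of the 54446 genes counted in each library. They comprise 4 subunits of the proton pump (Atp6v0a4, Atp6v1b1, Atp6v1g3 and Atp6v0d2), 3 anion exchangers (Slc4a1, Slc26a4 and Slc26a7), the transcription factor Foxi1, the carbonic anhydrase Car2 and the anion-permeable channel Aqp6. NMN is a precursor of NAD+, and the study asked whether a high oral dose is tolerated. RNA sequencing was run on 28 libraries, 14 from the kidney and 14 from the liver. All mice were male C57BL/6 mice (C57BL6J in the study's methods) aged 8 weeks, and all were gavaged for 7 days. In the first schedule 4 mice received NMN at 1340 mg/kg/d and 4 received water, and in the second 3 received NMN at 2680 mg/kg/d and 3 received water. The higher dose was reached by more gavages in a day, so the dose and the number of gavages cannot be told apart, and each schedule had its own water group.

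Intercalated cells carry acid and base across the wall of the connecting tubule and the collecting duct. The acid-secreting kind places a V-type proton ATPase in the membrane that faces the urine and the exchanger AE1, encoded by Slc4a1, on the blood side, while the base-secreting kind places pendrin, encoded by Slc26a4, on the urine side. Cytosolic carbonic anhydrase supplies the protons and the bicarbonate, and Foxi1 is needed for these cells to form.

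The kidney libraries of the 1340 mg/kg/d schedule held 13174264 to 14006288 counted reads with NMN and 15354270 to 15696435 with water. Those of the 2680 mg/kg/d schedule held 22922994 to 33872983 with NMN and 16358886 to 18983689 with water. Depth therefore differed between treatments without overlap, in opposite directions in the 2 schedules. Values are given as CPM, counts scaled to a common library size with TMM factors that were set within each comparison. Within each schedule NMN and water were compared in edgeR (quasi-likelihood F test), and p-values were adjusted by the Benjamini-Hochberg method over every tested gene. The organ labels matched the markers. Group means of the summed proximal tubule genes ran from 28271 to 39837 CPM in the kidney and from 1106 to 1651 CPM in the liver, there mostly from Slc27a2, and those of the summed hepatocyte genes from 1770 to 2523 CPM in the kidney, mostly from Cyp2e1, and from 105179 to 153360 CPM in the liver. Between kidney libraries the biological coefficient of variation came to 16.2% at the lower dose and 11.98% at the higher.

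All 10 genes passed the filter on low counts in both kidney comparisons. At 1340 mg/kg/d none of the 10 passed an adjusted p under 0.05 in edgeR, against 18 of 14972 tested genes (0.12%), and DESeq2 called none of them either. Only Atp6v0a4 had an unadjusted p under 0.05, where 8.94% of all tested genes had one. Of the 10, 6 had a higher fitted level with NMN and 4 a lower one, with a median log2 fold change of 0.08 against 0.0011 over all tested genes. At 2680 mg/kg/d Atp6v0a4 passed, 1 of the 10, against 61 of 15245 tested genes (0.4%), a call that 2 other edgeR settings and most fits without 1 mouse did not make. The unadjusted p was under 0.05 for Atp6v0a4, Aqp6 and Slc4a1, where 11.1% of all tested genes had one. Of the 10, 9 had a higher fitted level with NMN and only Atp6v1g3 a lower one, with a median log2 fold change of 0.22 against 0.0038 over all tested genes. The fitted direction was the same in both schedules for 7 of the 10 genes. In whole-kidney RNA a change in the number of intercalated cells and a change in the RNA per cell cannot be told apart.

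**Figure D1:**
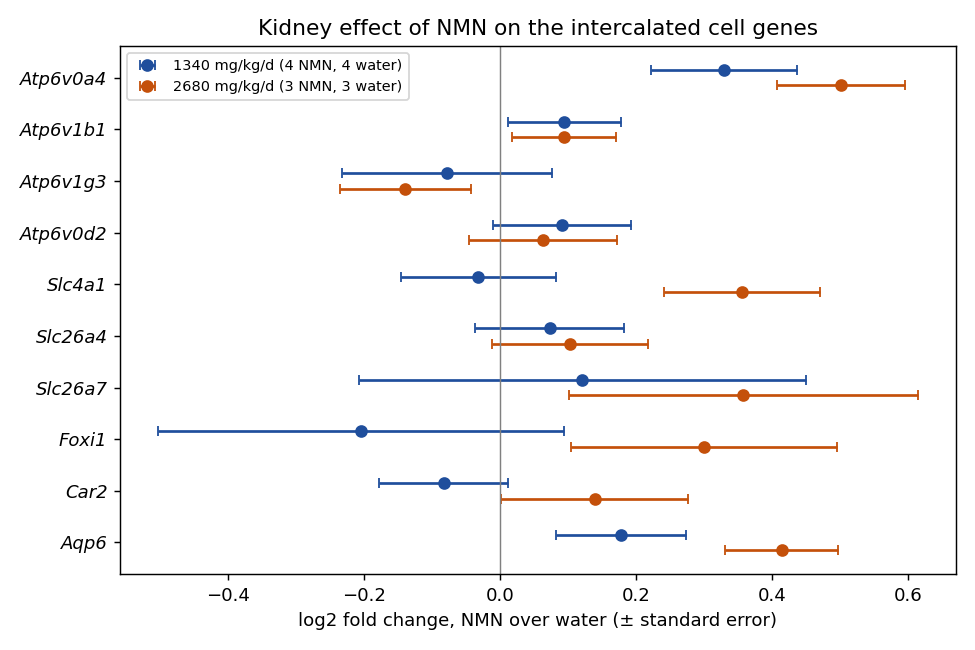
Log2 fold change of NMN over water for each of the 10 genes (horizontal axis, with bars of 1 standard error from edgeR) in the kidney at 1340 mg/kg/d (blue) and 2680 mg/kg/d (orange). Atp6v0a4 had the highest value in both schedules, at 0.33 and 0.50, and at 2680 mg/kg/d only Atp6v1g3 lay below 0.

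The proton pump is a V-type ATPase with a membrane sector (V0) and a cytosolic sector (V1), and several of its subunits exist as a widely expressed form and as a form restricted to a few tissues. Atp6v0a4 encodes the a4 subunit of the membrane sector, through which the protons pass, and its loss in humans causes distal renal tubular acidosis. Its levels at 1340 mg/kg/d were 264, 314, 288 and 268 CPM in the water mice and 375, 390.1, 282 and 376 CPM in the NMN mice. Replicate 3 of the NMN group lay among the water mice, and the other NMN mice lay above all of them. The mean was 283 ± 23.2 CPM with water and 356 ± 49.5 CPM with NMN (SD, n = 4 each), a log2 fold change of 0.33 ± 0.11 (SE, edgeR adjusted p = 0.319). An exact permutation test over the mice gave p = 0.0857 (two-sided), where 0.0286 is the smallest that 4 against 4 allow. Without NMN replicate 3 the log2 fold change was 0.42 (edgeR adjusted p = 0.0481). Over all 8 fits that each left out 1 mouse the adjusted p ran from 0.0481 to 0.735.

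The levels of Atp6v0a4 at 2680 mg/kg/d were 245, 263 and 252 CPM in the water mice and 315, 392 and 368 CPM in the NMN mice. All 3 NMN mice were above all 3 water mice. The mean of Atp6v0a4 rose from 253 ± 8.97 to 358 ± 39.5 CPM (SD, n = 3 each), 1.42-fold on the fitted scale, or a log2 fold change of 0.50 ± 0.09 (SE, edgeR adjusted p = 0.0452). The exact permutation test gave p = 0.1 (two-sided), the smallest that 3 mice against 3 allow. The groups did not overlap for 2 of the 10 genes, Atp6v0a4 and Aqp6, where 17.2% of all tested genes had groups that did not overlap. The direction held in each of the 6 fits that left out 1 mouse, with a log2 fold change of 0.43 to 0.58. The adjusted p rose to as much as 0.236 and missed 0.05 in 5 of the 6, all but the fit without NMN replicate 1. It also missed 0.05 in edgeR without the robust option (adjusted p = 0.0665) and with all 14 kidney libraries in one fit (adjusted p = 0.0840). Atp6v0a4 shares 6.45% of its exon length with Tmem213 on the opposite strand and D630045J12Rik on the same strand, and the counting ignored strand. Tmem213 had a log2 fold change of 0.01 at 1340 mg/kg/d and of 0.16 at 2680 mg/kg/d (edgeR adjusted p = 0.514).

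**Figure D2:**
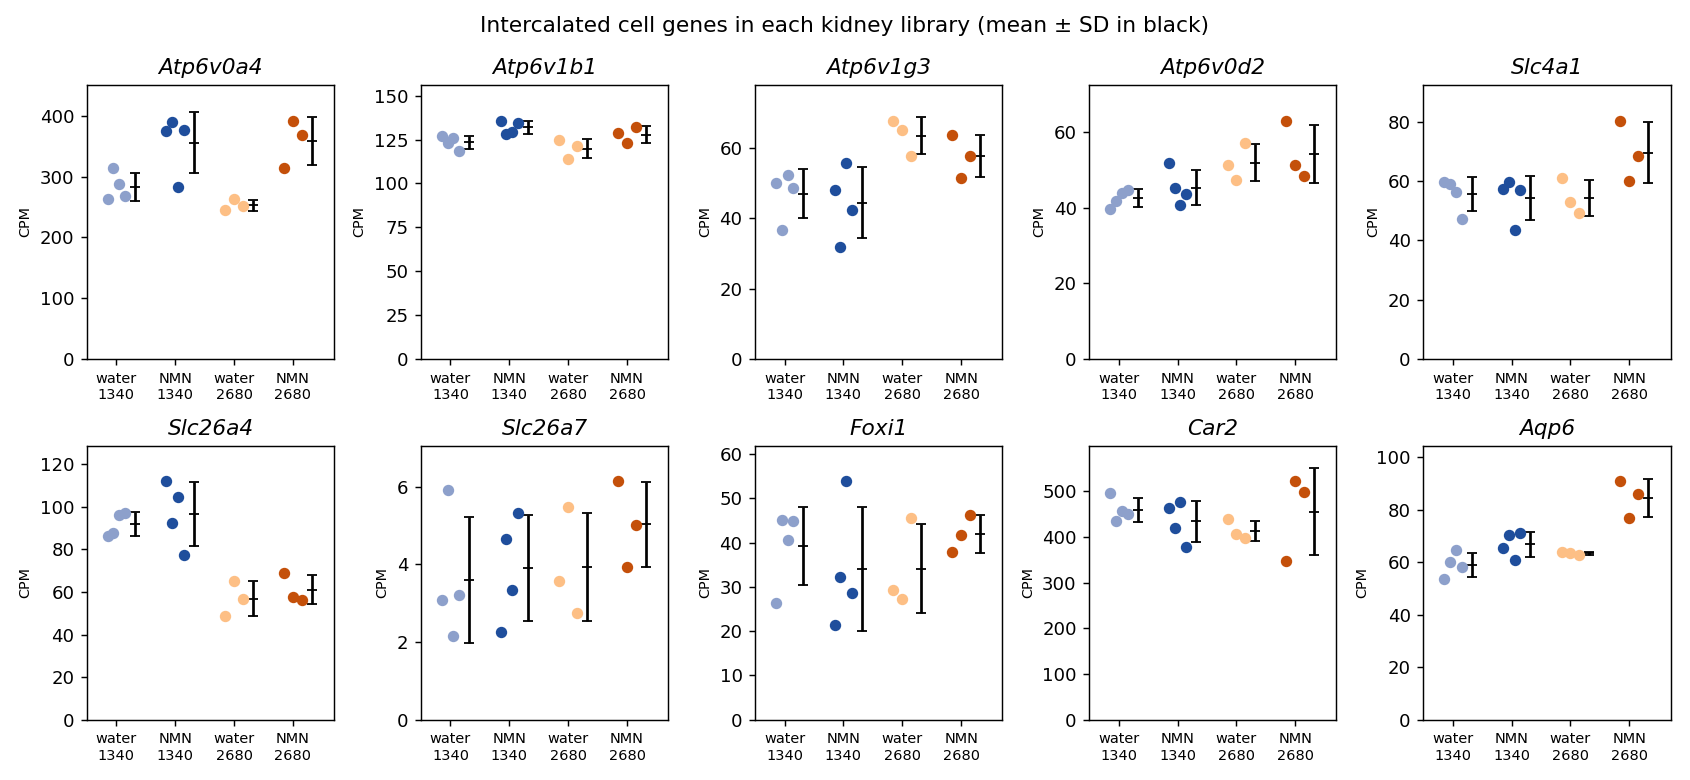
CPM of each of the 10 genes (vertical axis from 0, its scale set for each gene) in every kidney library, by treatment and schedule in mg/kg/d, with the mean and SD of each group in black. For Atp6v0a4 and Aqp6 at 2680 mg/kg/d the 3 NMN points lie above the 3 water points, and for Atp6v0a4 at 1340 mg/kg/d 1 NMN point, at 282 CPM, lies among the water points.

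The sequence around the start is shown for 3 of the genes. Atp6v0a4 and Aqp6 had the smallest p at 2680 mg/kg/d. Atp6v1b1 was the only 1 of the 6 genes searched with a match to the forkhead core motif. That motif is the kind of sequence that Foxi1 and its relatives bind. RefSeq on GRCm38.p6 gave a window of 300 bases around the start, most of it upstream, for 6 of the 10 genes. The windows are chr6:38124537-38124836 on the minus strand for Atp6v0a4, chr6:83742767-83743066 on the plus strand for Atp6v1b1 and chr15:99600950-99601249 on the plus strand for Aqp6. Capitals mark the core TGTTTA, searched on both strands (TAAACA on the other).
Atp6v0a4: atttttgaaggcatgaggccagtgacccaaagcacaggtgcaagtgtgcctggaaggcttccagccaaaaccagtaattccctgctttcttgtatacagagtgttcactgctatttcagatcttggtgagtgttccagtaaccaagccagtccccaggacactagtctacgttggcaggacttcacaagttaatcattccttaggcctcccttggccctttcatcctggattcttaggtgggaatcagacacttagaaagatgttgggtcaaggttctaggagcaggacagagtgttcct
Atp6v1b1: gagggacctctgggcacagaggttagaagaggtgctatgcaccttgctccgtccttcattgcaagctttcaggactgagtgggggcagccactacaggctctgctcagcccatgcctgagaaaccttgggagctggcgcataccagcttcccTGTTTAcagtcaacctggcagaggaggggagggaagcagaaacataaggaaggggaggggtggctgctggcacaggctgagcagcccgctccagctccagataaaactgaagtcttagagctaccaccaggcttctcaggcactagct
Aqp6: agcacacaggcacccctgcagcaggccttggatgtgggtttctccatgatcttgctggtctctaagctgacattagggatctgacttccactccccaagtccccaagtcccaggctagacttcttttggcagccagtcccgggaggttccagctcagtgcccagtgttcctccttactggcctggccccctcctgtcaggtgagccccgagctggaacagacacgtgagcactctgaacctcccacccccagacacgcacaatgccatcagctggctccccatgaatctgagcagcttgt
The match in Atp6v1b1 starts at position -98 from the start site and includes the 7-letter form GTAAACA on the other strand. Of all 32851 RefSeq windows 13.4% held the 6-letter core, and 3.65% held the 7-letter form TGTTTAC or GTAAACA, which contains the core and is counted in that share too. A match of letters is not a binding site, and the absence of one says nothing of the factor.

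Atp6v1b1 encodes the B1 subunit of the cytosolic sector, the part that hydrolyses ATP, and its human counterpart is also a gene of distal renal tubular acidosis. Its levels were 127, 123, 126 and 119 CPM with water and 136, 128, 129 and 135 CPM with NMN at 1340 mg/kg/d. All NMN mice lay above all water mice by a small margin, which made Atp6v1b1 the only 1 of the 10 genes with groups that did not overlap, against 5.12% of all tested genes. The fitted log2 fold change was 0.09 ± 0.08 (SE, edgeR adjusted p = 0.795, two-sided exact permutation p = 0.0286, the smallest possible). The value at 2680 mg/kg/d was 0.09 as well ± 0.08 (SE, edgeR adjusted p = 0.701), with 125, 114 and 121 CPM with water and 129, 123 and 132 CPM with NMN, and the groups overlapped.

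Atp6v1g3 and Atp6v0d2 encode the tissue-restricted forms of the G subunit of the stalk and of the d subunit that joins the sectors. Atp6v1g3 lay between 36.8 and 52.2 CPM with water and between 31.9 and 55.8 CPM with NMN at 1340 mg/kg/d, and the groups overlapped. Its log2 fold change there was -0.08 ± 0.15 (SE, edgeR adjusted p = 0.923), and at 2680 mg/kg/d it was -0.14 ± 0.10 (SE, edgeR adjusted p = 0.638). Atp6v0d2 had log2 fold changes of 0.09 ± 0.10 (SE) and 0.06 ± 0.11 (SE), with edgeR adjusted p of 0.842 and 0.879. Leaving out 1 mouse moved these values of Atp6v0d2 over 0.021 to 0.14 and over -0.063 to 0.14. The value of Atp6v1g3 at 1340 mg/kg/d ran from -0.21 to 0.053 over the 8 fits that each left out 1 mouse, and it was above 0 without NMN replicate 2. At 2680 mg/kg/d the value of Atp6v1g3 ran from -0.22 to -0.066 over the 6 such fits.

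The other V-ATPase genes, 19 subunits and accessory proteins in all, gave the setting for these values. All 19 were tested in the kidney, and none passed an adjusted p under 0.05 in edgeR in either schedule. At 1340 mg/kg/d 14 of the 19 had a lower fitted level with NMN and 5 a higher one, with a median log2 fold change of -0.05. At 2680 mg/kg/d 14 of the 19 had a higher and 5 a lower one, with a median of 0.07. The unadjusted p was under 0.05 for 1 of them at the lower dose and 3 at the higher. Over all tested genes the shares were 8.94% and 11.1%. The smallest p in the first schedule was that of Atp6v0c, which encodes the proteolipid of the proton-carrying ring, with 157 ± 9.56 CPM with water and 135 ± 10.9 CPM with NMN (SD, n = 4 each) and a log2 fold change of -0.22 (edgeR adjusted p = 0.484). Atp6v0e2 and Atp6v0b had log2 fold changes of -0.20 and -0.16 (edgeR adjusted p = 0.560 and 0.702). Atp6v0e2 was the only 1 of the 19 whose groups did not overlap in that schedule, with all NMN mice below all water mice. Of all tested genes, 5.12% had groups that did not overlap there. In the second schedule Atp6v1a, the catalytic A subunit, had 385 ± 12.3 CPM with water and 465 ± 38.2 CPM with NMN (SD, n = 3 each), a log2 fold change of 0.27 (edgeR adjusted p = 0.256), with no overlap of the groups. Atp6v1f (0.29) and Atp6v0a2 (0.21) had edgeR adjusted p of 0.280 and 0.386, and the groups overlapped for Atp6v1f and did not for Atp6v0a2. In all, 2 of the 19 had groups that did not overlap in that schedule, against 17.2% of all tested genes.

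**Figure D3:**
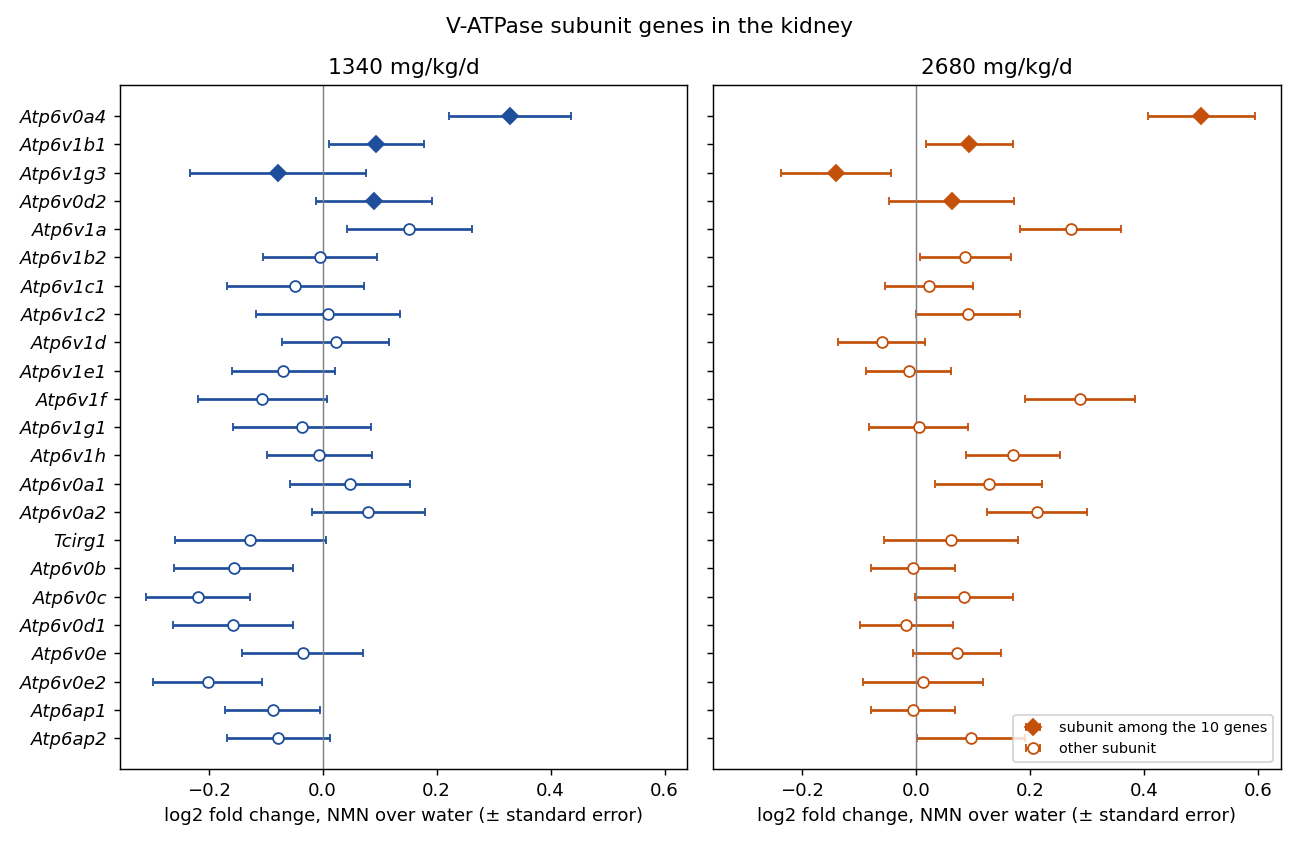
Log2 fold change of NMN over water (horizontal axis, with bars of 1 standard error from edgeR) of 23 V-ATPase subunit and accessory genes in the kidney at 1340 mg/kg/d (left) and 2680 mg/kg/d (right), with the 4 subunits among the 10 genes as filled diamonds and the other 19 genes as open circles. Atp6v0a4 has the highest value in both panels, at 0.33 and 0.50, and the other 19 genes lie between -0.22 and 0.29.

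Each of the 4 subunits was also set against the other genes for the same subunit, as a share of their summed CPM per kb of exon not shared with another gene. Atp6v0a4 made up most of the a subunit transcripts, 68.5% ± 2.66 with water and 72.7% ± 3.60 with NMN at 1340 mg/kg/d (SD, n = 4 each), and 70.9% ± 2.56 and 75.5% ± 2.28 at 2680 mg/kg/d (SD, n = 3 each). In the second schedule its share ran from 68.7% to 73.7% with water and from 73.2% to 77.7% with NMN, so the groups overlapped. Atp6v1b1 made up 28.5% to 32.3% of the B subunit transcripts on average in the 4 groups. The group means of Atp6v0d2 among the d subunit genes were 19.3% and 22.0% in the first schedule and 26.7% and 27.9% in the second. Those of Atp6v1g3 among the G subunit genes were 13.95% and 13.6% in the first and 22.7% and 21.1% in the second. The C subunit has a tissue-restricted form too, Atp6v1c2, which is not among the 10, and its group means were 55.8% and 57.0% in the first schedule and 62.6% and 63.7% in the second. The share of Atp6v1g3 differed more between the schedules than between NMN and water. The schedules also differed in the share of counts from mitochondrially encoded genes, 9.71% ± 0.70 (SD, n = 4) with water in the first and 20.6% ± 0.91 (SD, n = 3) in the second, and the part of that difference in the shares was not tested.

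**Figure D4:**
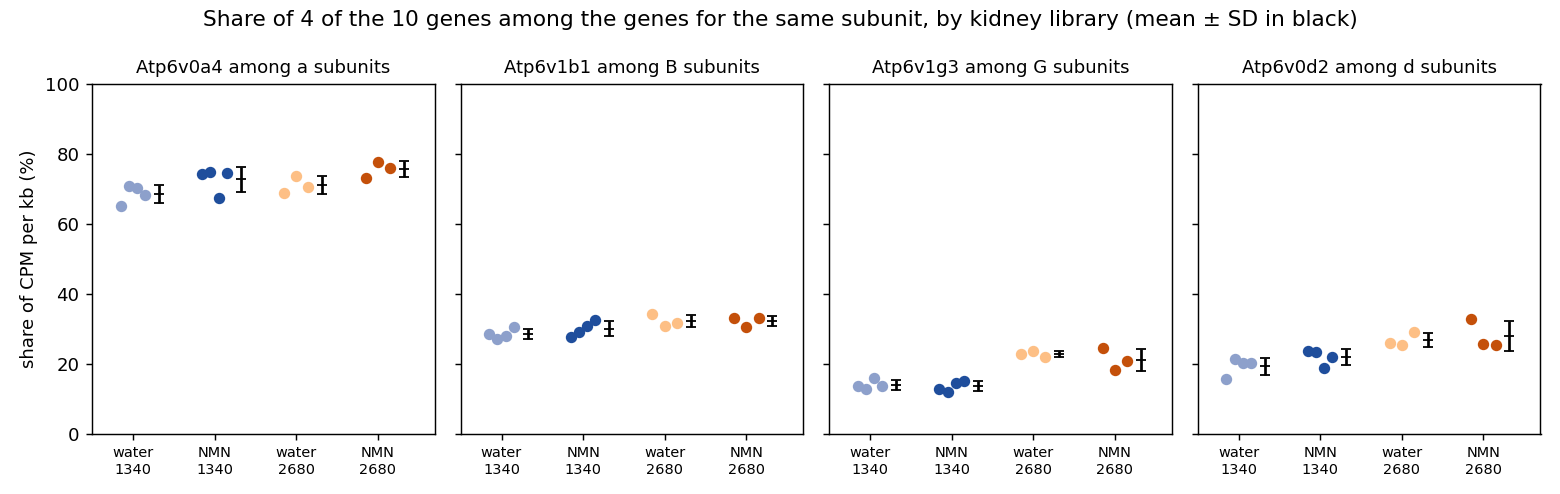
Share of Atp6v0a4, Atp6v1b1, Atp6v1g3 and Atp6v0d2 in the summed CPM per kb of the genes for the same subunit (vertical axis, percent), in every kidney library by treatment and schedule in mg/kg/d, with mean and SD in black. Of the 4, Atp6v0a4 holds the largest share, with group means of 68.5% to 75.5%. The group means of all 4 are higher in the second schedule in both treatments.

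Among the anion exchangers, Slc4a1 encodes AE1, which returns bicarbonate to the blood and which red blood cells carry as well, in a longer form that gene counts do not separate. Its levels at 2680 mg/kg/d were 61.0, 53.0 and 49.2 CPM with water and 80.4, 60.1 and 68.5 CPM with NMN. The groups overlapped by the lowest NMN mouse and the highest water mouse. The log2 fold change was 0.36 ± 0.11 (SE, edgeR unadjusted p = 0.00943 and adjusted p = 0.260, two-sided exact permutation p = 0.200). Levels in the first schedule were 59.6, 59.2, 56.4 and 47.4 CPM with water and 57.5, 59.8, 43.4 and 56.9 CPM with NMN, with a log2 fold change of -0.03 ± 0.11 (SE, edgeR adjusted p = 0.961). Red blood cell genes were read beside it. Of 8 listed, 6 were tested, and at 2680 mg/kg/d 5 of the 6 had a lower fitted level with NMN and 1 a higher one, with a median log2 fold change of -1.20. The fitted direction of Slc4a1 there was opposite to that of these 5. In the first schedule all 6 had a higher fitted level, with a median of 0.75. None of the 6 had an unadjusted p under 0.05 in either schedule, the smallest being those of Alas2 at 1340 (log2 fold change 1.05, edgeR adjusted p = 0.610) and of Hbb-bt at 2680 mg/kg/d (-1.38, edgeR adjusted p = 0.666). Their summed level was 137 ± 78.7 CPM with water and 88.5 ± 47.6 CPM with NMN at 2680 mg/kg/d (SD, n = 3 each), and 127 ± 62.1 and 189 ± 117 CPM at 1340 mg/kg/d (SD, n = 4 each). The 2 most abundant genes of the list were Hbb-bs, a globin gene, and Slc25a37, a mitochondrial iron importer that other cells express too. The group means of Hbb-bs were 39.4 CPM with water and 72.4 CPM with NMN at 1340 mg/kg/d and 48.9 and 22.1 CPM at 2680 mg/kg/d, and those of Slc25a37 were 43.9 and 45.8 CPM and 43.4 and 44.7 CPM, so which was higher differed between the groups.

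Slc26a4, which encodes pendrin, had 86.2, 87.6, 95.9 and 97.0 CPM with water and 112, 92.3, 104 and 77.3 CPM with NMN at 1340 mg/kg/d. In the second schedule Slc26a4 had 48.7, 65.3 and 56.4 CPM with water and 68.8, 57.7 and 56.4 CPM with NMN. The groups overlapped in both schedules, with log2 fold changes of 0.07 ± 0.11 (SE, edgeR adjusted p = 0.892) and 0.10 ± 0.11 (SE, edgeR adjusted p = 0.790). All 8 libraries of the first schedule lay above all 6 of the second. The scaling factors were set within each schedule, and the share of all genes that separate in this way was not computed. The part of the differing mitochondrial share of the schedules in this was not tested. Slc26a7, an anion exchanger of the blood side of acid-secreting cells, was the least abundant of the 10, at 2.15 to 6.14 CPM in the 14 kidney libraries. Its log2 fold changes were 0.12 ± 0.33 (SE) and 0.36 ± 0.26 (SE), with adjusted p of 0.946 and 0.651, and its standard errors were the largest of the 10 in both schedules. Leaving out 1 mouse moved the values of Slc26a7 over -0.068 to 0.47 and over 0.16 to 0.66.

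Foxi1, the factor that the intercalated cell program depends on, varied widely between mice. In the first schedule Foxi1 had 26.3, 45.1, 40.5 and 44.8 CPM with water and 21.4, 32.3, 53.8 and 28.6 CPM with NMN. NMN replicate 3, the mouse that lay low for Atp6v0a4, was the highest of the 14 kidney libraries for Foxi1. The log2 fold change was -0.20 ± 0.30 (SE, edgeR adjusted p = 0.892). In the second schedule its levels were 29.3, 27.2 and 45.6 CPM with water and 37.8, 41.6 and 46.2 CPM with NMN, with a log2 fold change of 0.30 ± 0.20 (SE, edgeR adjusted p = 0.631), and the groups overlapped. Leaving out 1 mouse moved these values of Foxi1 over -0.52 to -0.036 in the first schedule, the former without NMN replicate 3 and the latter without NMN replicate 1, and over 0.16 to 0.57 in the second, the latter without water replicate 3.

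Car2 encodes the cytosolic carbonic anhydrase, which other tubule cells express too. Its levels were 496, 435, 457 and 449 CPM with water and 462, 418, 476 and 378 CPM with NMN at 1340 mg/kg/d, and 438, 405 and 397 CPM with water and 347, 521 and 497 CPM with NMN at 2680 mg/kg/d. The NMN mice of the second schedule held both the lowest and the highest value of the 14. The log2 fold changes were -0.08 ± 0.10 (SE, edgeR adjusted p = 0.847) and 0.14 ± 0.14 (SE, edgeR adjusted p = 0.757). Leaving out 1 mouse moved the values of Car2 over -0.13 to -0.022 in the first schedule and over 0.031 to 0.30 in the second, where the former was the value without NMN replicate 2 and the latter that without NMN replicate 1.

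Aqp6 encodes an intracellular channel of acid-secreting intercalated cells that lies in vesicles together with the proton pump and lets anions through. Its levels at 2680 mg/kg/d were 63.9, 63.5 and 62.7 CPM with water and 90.7, 76.6 and 86.0 CPM with NMN. The NMN mice all lay above the water mice, which lay close together. The means were 63.4 ± 0.64 and 84.5 ± 7.17 CPM (SD, n = 3 each), with a log2 fold change of 0.41 ± 0.08 (SE, edgeR adjusted p = 0.0568, two-sided exact permutation p = 0.1, the smallest possible). Aqp6 thus narrowly missed the threshold in edgeR, while DESeq2 gave an adjusted p of 0.00542. Without NMN replicate 2 the adjusted p was 0.0391 in edgeR, and over the 6 fits without 1 mouse it ran from 0.0391 to 0.268. The levels of Aqp6 at 1340 mg/kg/d were 53.5, 60.0, 64.4 and 58.3 CPM with water and 65.2, 70.1, 60.9 and 71.0 CPM with NMN. NMN replicate 3 was again the lowest of its group, and the groups overlapped by that mouse. The log2 fold change was 0.18 ± 0.10 (SE, edgeR adjusted p = 0.610).

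Whether the effect of NMN differed by schedule was tested in edgeR with an interaction term, over the 14 kidney libraries. None of the 10 genes passed an adjusted p under 0.05, against 1 of 15989 tested genes (0.00625%). DESeq2 called none of the 10 either. Slc4a1 was the only one with an unadjusted p under 0.05 (edgeR adjusted p = 0.999), where 4.62% of all tested genes had one, with a log2 difference of 0.38 ± 0.17 (SE) between the effect at 2680 and that at 1340 mg/kg/d. The difference was 0.17 ± 0.15 (SE) for Atp6v0a4, 0.23 ± 0.13 (SE) for Aqp6 and 0.50 ± 0.42 (SE) for Foxi1. Leaving out 1 mouse moved it over 0.071 to 0.26 for Atp6v0a4, 0.18 to 0.30 for Aqp6 and 0.34 to 0.81 for Foxi1. With errors of this size neither an equal nor a moderately larger effect of the second schedule was told apart.

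Levels were ordered per kb of exon in the water mice. Car2 was first in both schedules, at 190 ± 10.9 CPM per kb in the first (SD, n = 4) and 171 ± 8.96 CPM per kb in the second (SD, n = 3). Atp6v0a4 was second, at 60.9 ± 4.98 and 54.4 ± 1.93 CPM per kb, with no overlap with its neighbours in the order. In the first schedule Slc26a4 (29.5), Atp6v1b1 (28.2), Atp6v1g3 (24.9) and Aqp6 (24.4) followed within a range in which each overlapped the next, Atp6v1b1 and Atp6v1g3 only through 1 mouse of the latter. Foxi1 (16.6) and Atp6v0d2 (15.6) overlapped as well. Slc4a1 came next at 11.4 ± 1.16 CPM per kb, and its water mice overlapped those of Foxi1 in both schedules. Slc26a7 was last at 0.66 ± 0.30 CPM per kb. In the second schedule Atp6v1g3 (33.6) came directly after Atp6v0a4, and Slc26a4 (18.3) lay lower, where its water mice overlapped those of Atp6v0d2 (19.1) and Foxi1 (14.5), so the order of these was not resolved. Summed over the 10 genes, the level was 1205 ± 18.9 CPM with water and 1267 ± 48.9 CPM with NMN at 1340 mg/kg/d (SD, n = 4 each), and 1114 ± 16.4 and 1315 ± 99.0 CPM at 2680 mg/kg/d (SD, n = 3 each). Car2 and Atp6v0a4 made up most of these sums.

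The 10 genes did not vary as one group from mouse to mouse. Over the 14 kidney libraries, each schedule centred on its own mean, the 45 pairs of genes had Pearson correlations of log2 CPM from -0.63 to 0.80 with a median of 0.03, and 24 were above 0. The highest was that of Atp6v0a4 with Aqp6 (0.80) and the lowest that of Atp6v0a4 with Atp6v1g3 (-0.63). These libraries share treatment groups and depth, so the values describe them and carry no test. By the same measure, the genes outside the 10 that ran most like their mean were Capg (0.90), Abcc1 (0.89), Adssl1 (0.88), St14 (0.88) and Eif6 (0.87), the highest of 13262 genes with at least 1 CPM on average in every kidney group. Capg caps actin filaments, Abcc1 exports glutathione conjugates, Adssl1 belongs to purine nucleotide synthesis, St14 is a membrane serine protease and Eif6 acts in ribosome assembly. Within the 1340 mg/kg/d libraries alone the correlations of these 5 genes were 0.49 to 0.72, and within the 2680 mg/kg/d libraries 0.94 to 0.99.

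Other genes known from intercalated cells were described next. All 19 of that list were tested, 16 had a higher fitted level with NMN and 3 a lower one in each schedule, and none passed an adjusted p under 0.05 in edgeR. The median log2 fold change was 0.09 at 1340 mg/kg/d and 0.13 at 2680 mg/kg/d. In each schedule 2 of the 19 had an unadjusted p under 0.05, where 8.94% and 11.1% of all tested genes had one. Tfcp2l1, a transcription factor that acts with Foxi1 and is expressed more widely along the distal nephron, had 465, 481, 422 and 456 CPM with water and 671, 668, 489 and 537 CPM with NMN at 1340 mg/kg/d. The groups did not overlap there, with a log2 fold change of 0.38 ± 0.11 (SE, edgeR adjusted p = 0.234). Such groups were seen for 2 of the 19 genes in that schedule, against 5.12% of all tested genes. In the second schedule Tfcp2l1 had a log2 fold change of 0.15 (edgeR adjusted p = 0.600). Adgrf5, a receptor that is also abundant in endothelium, had 0.27 and 0.25 (edgeR adjusted p = 0.467 and 0.381). Car12, a membrane carbonic anhydrase, had -0.18 at 1340 mg/kg/d and Rhcg, an ammonia channel, 0.20 at 2680 mg/kg/d.

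The largest fitted change in that list was in Atp12a, the non-gastric proton-potassium ATPase, a second kind of proton pump. Atp12a at 2680 mg/kg/d had 0.263, 0.602 and 0.540 CPM with water and 4.04, 1.27 and 1.73 CPM with NMN. All NMN mice lay above all water mice, at low levels throughout. Atp12a was the only 1 of the 19 with groups that did not overlap in that schedule, against 17.2% of all tested genes. The log2 fold change was 2.32 ± 0.51 (SE, edgeR adjusted p = 0.0940). In the first schedule it was 0.88 ± 0.74 (SE, edgeR adjusted p = 0.778), with 0.735, 1.26, 0.261 and 0.578 CPM with water and 1.13, 1.78, 2.35 and 0 CPM with NMN. Atp12a shares 13.9% of its exon length with a gene on the opposite strand.

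The neighbouring cell types were read in the same way. Principal cells, which take up water and sodium beside the intercalated cells, had 9 of 10 listed genes tested, and in both schedules 7 had a higher and 2 a lower fitted level with NMN. At 2680 mg/kg/d 1 of the 9, Aqp4, passed an adjusted p under 0.05 in edgeR, against 0.4% of all tested genes. Aqp4, the water channel of the blood-side membrane of principal cells, had 83.0, 96.4 and 80.2 CPM with water and 39.5, 44.3 and 54.4 CPM with NMN at 2680 mg/kg/d. The groups did not overlap, and Aqp4 fell from 86.5 ± 8.71 to 46.1 ± 7.62 CPM (SD, n = 3 each), a log2 fold change of -0.91 ± 0.12 (SE, edgeR adjusted p = 0.0122). At 1340 mg/kg/d its log2 fold change was -0.08 (edgeR adjusted p = 0.876). The sodium channel subunit genes Scnn1a (0.28, edgeR adjusted p = 0.219) and Scnn1b (0.17, edgeR adjusted p = 0.453) had fitted values in the other direction at 2680 mg/kg/d. Their groups did not overlap either, where 17.2% of all tested genes had groups that did not overlap. At 1340 mg/kg/d Scnn1b (0.20), Hsd11b2 (0.18) and Scnn1a (0.12) had the smallest p, none past the threshold.

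In none of the remaining lists did a kidney gene pass an adjusted p under 0.05. Of the 6 genes of the connecting and distal convoluted tubule, 4 had a higher and 2 a lower fitted level in both schedules, with medians of 0.13 and 0.10. The calcium channel gene Trpv5 had the smallest p at 1340 mg/kg/d, with a log2 fold change of 0.55 ± 0.14 (SE, edgeR adjusted p = 0.132). Of the 5 genes of the thick ascending limb, 5 and 4 had a higher fitted level, with medians of 0.30 and 0.13. The smallest p of these segments at 2680 mg/kg/d were those of S100g (-0.27, edgeR adjusted p = 0.420), a calcium-binding protein gene, and Kcnj1 (0.20, edgeR adjusted p = 0.384), a potassium channel gene. The sodium-potassium-chloride transporter gene Slc12a1 had 0.43 (edgeR adjusted p = 0.117) and Umod, which encodes uromodulin, 0.30 (edgeR adjusted p = 0.349), both at 1340 mg/kg/d. Slc12a1 and Umod, 2 of the 5 genes of that limb, had groups that did not overlap there, as had Trpv5. The share of such genes among all tested genes was 5.12%. Of the 10 proximal tubule genes, 7 had a lower fitted level in both schedules, with medians of -0.11 and -0.13. The unadjusted p was under 0.05 for 4 of the 10 at 1340 mg/kg/d (3 lower, 1 higher) and 5 at 2680 mg/kg/d (4 lower, 1 higher). Over all tested genes the shares were 8.94% and 11.1%. All NMN mice lay below all water mice for 2 and 4 of the 10, Slc34a1 and Slc5a2 in both schedules. Groups that did not overlap made up 5.12% and 17.2% of all tested genes. The glucose transporter gene Slc5a2 had -0.63 at 1340 mg/kg/d (edgeR adjusted p = 0.0852), and Kap, an androgen-regulated gene, -0.43 at 2680 mg/kg/d (edgeR adjusted p = 0.187). Of the 10 glomerular, vascular and immune genes, 10 and 9 had a higher fitted level, with medians of 0.21 and 0.14, and the podocyte genes Nphs1 (0.46 at 1340 mg/kg/d, edgeR adjusted p = 0.441) and Podxl (0.33 at 2680 mg/kg/d, edgeR adjusted p = 0.234) had the smallest p. Of the 5 hepatocyte genes, 3 and 4 had a higher fitted level in the kidney, with medians of 0.21 and 0.37, and Ttr (-0.49, edgeR adjusted p = 0.463) and Alb (0.37, edgeR adjusted p = 0.645) had the smallest p. The summed level of the proximal tubule genes was 39837 ± 4679 CPM with water and 32513 ± 3066 CPM with NMN at 1340 mg/kg/d (SD, n = 4 each), and 34996 ± 1221 and 28271 ± 3453 CPM at 2680 mg/kg/d (SD, n = 3 each). Kap alone made up most of each sum and most of the difference, with group means of 22600 CPM with water and 16686 CPM with NMN at 1340 mg/kg/d and of 21162 and 15731 CPM at 2680 mg/kg/d. The 3 proximal tubule genes with a higher fitted level in both schedules were Slc13a3 (0.39 and 0.26), Aqp1 (0.21 and 0.33) and Cubn (0.02 and 0.05), so the list did not move as one. The part of the difference in Kap in the values of Atp6v0a4 and the other distal nephron genes was not tested.

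**Figure D5:**
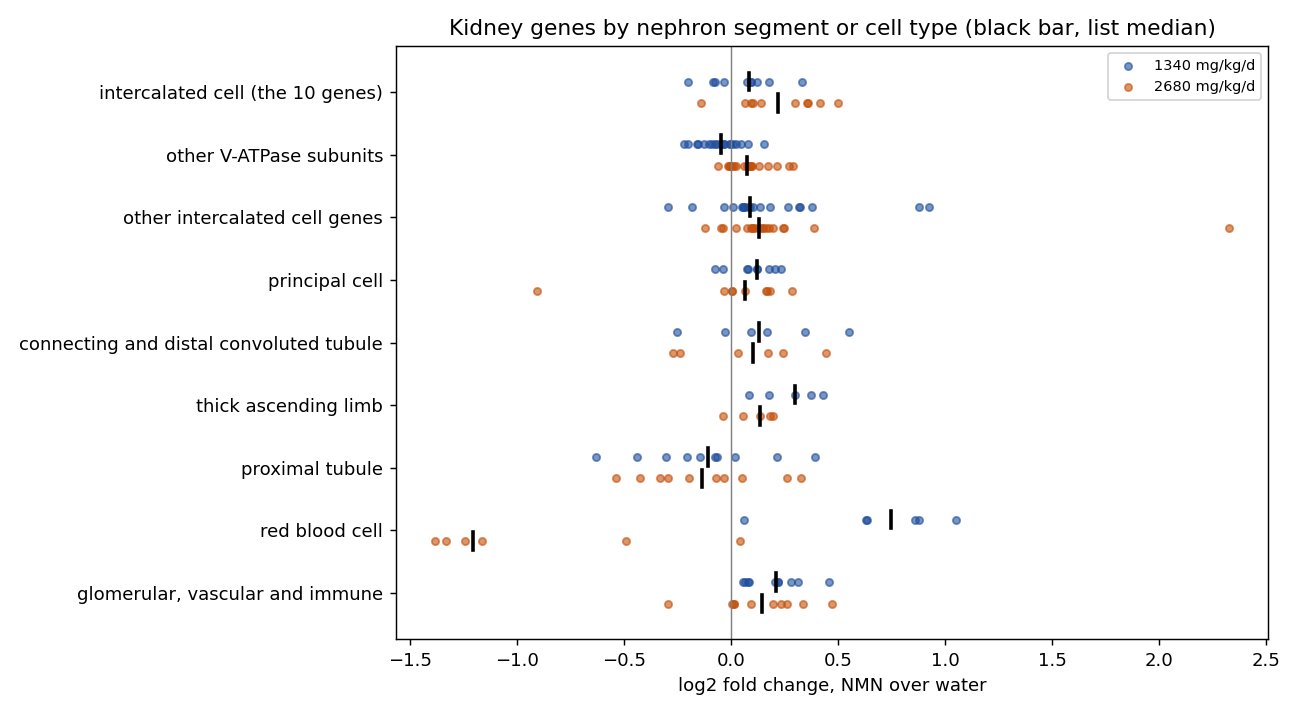
Log2 fold change of NMN over water in the kidney (horizontal axis) of each tested gene in lists of nephron segments and cell types, at 1340 mg/kg/d (blue) and 2680 mg/kg/d (orange), 1 point for each gene and a black bar at the list median. The medians of the 10 intercalated cell genes are 0.08 and 0.22, those of the proximal tubule -0.11 and -0.13, and those of the red blood cell genes 0.75 and -1.20.

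In the liver, only Car2 and Atp6v0d2 were expressed highly enough to test, 2 of the 10. Atp6v0d2, which macrophages and osteoclasts also express, had 5.05, 7.51 and 6.46 CPM with water and 15.2, 6.65 and 15.6 CPM with NMN at 2680 mg/kg/d. An NMN mouse, replicate 2, lay among the water mice. The log2 fold change was 0.97 ± 0.32 (SE, edgeR unadjusted p = 0.0109 and adjusted p = 0.0912), and at 1340 mg/kg/d it was 0.10 ± 0.64 (SE, edgeR adjusted p = 0.989). Liver Car2 had 8.63, 7.80, 8.84 and 8.92 CPM with water and 8.72, 8.54, 7.00 and 8.75 CPM with NMN at 1340 mg/kg/d, a log2 fold change of -0.05 ± 0.18 (SE, edgeR adjusted p = 0.974), and -0.23 ± 0.30 (SE, edgeR adjusted p = 0.696) at 2680 mg/kg/d. Neither gene passed the threshold of its comparison, which was an adjusted p under 0.05 at 1340 mg/kg/d (2 of 12449 tested genes, 0.0161%). For 2680 mg/kg/d, where the study also set a limit on the change, it was an adjusted p under 0.01 together with more than a 2-fold rise or a fall to under 0.5 (135 of 12477, 1.08%). The study's text gives this limit for p without saying that it was adjusted, and the adjusted p was used here. The adjusted p of liver Atp6v0d2 at 2680 mg/kg/d was 0.0346 in DESeq2, 0.00373 in edgeR with no filter, where the change stayed under 2-fold (log2 fold change 0.97), and 0.0104 in edgeR without NMN replicate 2. It rose to 0.385 in edgeR with all 14 liver libraries in one fit. None of these settings called either gene.

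The other 8 genes were near 0 in the liver. Atp6v0a4 reached at most 1.65 CPM and Slc26a4 at most 1.48 CPM in the 14 liver libraries, and Atp6v1b1 at most 0.57 CPM. Foxi1, Slc4a1 and Atp6v1g3 reached at most 2 counts in any liver library, Slc26a7 at most 3 and Aqp6 at most 4. A count of 0 allows up to 3 counts, which is 0.145 to 0.236 CPM on the unscaled totals of these libraries, and this limit covers counting error only. The lowest kidney library lay above the highest liver library for all 10 genes, by 2.54-fold for Atp6v0d2 and by 14.98-fold or more for the other 9. Umod, a gene of the thick ascending limb, averaged 3.24 CPM in the liver libraries at 1340 mg/kg/d and 0.55 CPM in those at 2680 mg/kg/d. Whether kidney RNA or reads reached the liver libraries was not tested.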

How the data were processed

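The 10 genes and the other lists were chosen with earlier results of these data known. Per the methods, poly(A)-selected reads were mapped by the authors with STAR. HTSeq-count 0.11.0 then assigned them to genes in strict intersection mode, ignoring strand, and the authors deposited the raw counts of 54446 Ensembl genes for each of 28 libraries. Instruments of 2 kinds are named, with no statement of which library ran on which. The summary rows that name no gene held 18.6% to 29.3% of the reads and were left out. Symbols came from GENCODE M21, in which 53229 identifiers matched with their version, 1180 without it and 37 not at all. The build named by the study was not matched to an assembly, so coordinates are printed only for RefSeq windows on GRCm38.p6.

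Samples were grouped by organ, schedule and treatment from the labels. The counts were filtered with filterByExpr, scaled with TMM and fitted with edgeR 4.0.16 under R 4.3.3 (robust quasi-likelihood F tests, Benjamini-Hochberg adjustment over all tested genes of a comparison). Calls needed an adjusted p under 0.05, and in the liver at 2680 mg/kg/d one under 0.01 and a change beyond 2-fold or 0.5-fold. Each SE was obtained from the fold change and the F statistic. Single genes were also tested by exact permutation over mice on log2(CPM + 0.5). Library totals ran from 12688324 to 33872983 counted reads, and since no molecular identifiers were used, limits from depth cover counting error only. The steps were tested on simulated counts.

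The rule for naming took the 10 genes in every comparison in which they were tested, from each other list the genes past the threshold and the 3 with the smallest p in each kidney comparison, and the 5 genes most like the mean of the 10. For lists outside the collecting duct and the V-ATPase, values are printed for the smallest p and the rest are summarised. Tmem213 is named for its overlap with Atp6v0a4.

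The alternatives tried were DESeq2 1.42.0, 2 other scalings in edgeR (DESeq2 size factors and upper quartile), either no filter or a floor of 10 counts in each library, a fit without the robust option, a replicate block, one fit over all 14 libraries of an organ, counts thinned to the smallest library, removal of mitochondrially encoded genes, the other threshold in the liver at 2680 mg/kg/d, and leaving out each library in turn. No 2 libraries of a group agreed within sampling noise (chi-square per degree of freedom 6.67 or more in all 36 pairs).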

Additional observations from a re-analysis of the deposited data

Results flagged for a closer look

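In groups of 4 mice, the highest or lowest mouse was checked for a gap to the rest that was large against the range of the group. Of 108 groups checked, 6 were picked out, and chance picks out about 1 in 20. Among the 10 genes, Atp6v0a4 was low in the kidney of NMN replicate 3 at 1340 mg/kg/d, with 282 CPM against 375 to 390.1 CPM in the other 3 mice. In the liver, Car2 was low in NMN replicate 3 of that schedule, with 7.00 CPM against 8.54 to 8.75 CPM. Acta2, a smooth muscle gene, was high in the same kidney of NMN replicate 3, with 47.8 CPM against 20.97 to 24.6 CPM. The other 3 were Ttr in the kidney of NMN replicate 4 (87.0 CPM against 63.8 to 65.8 CPM), Hsd11b2 in water replicate 1 (229.6 CPM against 178 to 185 CPM) and Nphs1 in water replicate 4 (16.9 CPM against 25.0 to 25.1 CPM), all at 1340 mg/kg/d.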

How the results depend on the processing

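Replicate numbers were shared between NMN and water but marked different mice. The deviations of same-numbered libraries from their group means correlated at 0.04, 0.02, 0.04 and 0.12 on average in the kidney at 1340 and 2680 mg/kg/d and in the liver at 1340 and 2680 mg/kg/d, and not above 0.1 in every pair, so the numbers were not taken to pair the mice. With the replicate block, 75 genes passed in the kidney at 1340, 92 in the kidney at 2680, 16 in the liver at 1340 and 2 in the interaction, and the count among the 10 genes did not change (Atp6v0a4 at 2680 mg/kg/d, adjusted p = 0.0350 from edgeR).

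Among the 10 genes at 2680 mg/kg/d in the kidney, DESeq2 called 2 (Atp6v0a4 and Aqp6) and edgeR with no filter 3 (these and Slc4a1), while edgeR called 0 without the robust option (Atp6v0a4 at an adjusted p of 0.0665) and 0 with all 14 libraries in one fit (0.0840). Leaving out 1 mouse gave 0 to 1 in either kidney schedule. Over all genes, DESeq2 called 159 and 236 in the kidney, 74 and 424 in the liver and 10 in the interaction. No filter gave 269 and 514 in the kidney, 44 and 504 in the liver and 106 in the interaction. Without the robust option 5 passed in the kidney at 1340 and 0 in the interaction, which was also 0 with upper quartile scaling and with at least 10 counts in every library. One fit per organ gave 35 in the kidney at 2680 and 6 in the liver at 1340, and an adjusted p under 0.05 alone gave 883 in the liver at 2680. Leaving out 1 mouse gave 5 to 67 and 3 to 191 genes in the kidney, 0 to 18 and 34 to 259 in the liver, and 0 to 1 in the interaction. The cause of these shifts was not tested.

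Without 1 mouse, log2 fold changes crossed 0 for genes near it. In the kidney at 1340 mg/kg/d the range was -0.21 to 0.053 for Atp6v1g3, -0.10 to 0.062 for Slc4a1, -0.0058 to 0.17 for Slc26a4 and -0.068 to 0.47 for Slc26a7. In the kidney at 2680 mg/kg/d it was -0.063 to 0.14 for Atp6v0d2 and -0.0028 to 0.21 for Slc26a4. In the liver it was -0.29 to 0.82 for Atp6v0d2 and -0.090 to 0.021 for Car2 at 1340, and -0.46 to 0.032 for Car2 at 2680 mg/kg/d. The interaction ran from -0.15 to 0.047 for Atp6v0d2, -0.040 to 0.029 for Atp6v1b1, -0.20 to 0.060 for Atp6v1g3, -0.070 to 0.14 for Slc26a4 and -0.12 to 0.54 for Slc26a7. That of Atp6v1b1, which was -0.0041, was 0.0073 with upper quartile scaling, 0.016 with no filter and 0.043 with thinned counts. The direction of Atp6v0a4 and Aqp6 in the kidney held in every setting tried. With 3 or 4 mice a group, the exact tests cannot go below 0.1 or 0.0286.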
